A study of Mus musculus with 14 samples.

Results

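The H3K27me3 landscape of the P60 cerebellum was described from the broad peak lists of 3 of the 14 libraries of the series, P60 replicates 1, 2 and 3. Peaks of the 3 lists that overlapped or touched were merged into 21348 regions. A region was called consensus when all 3 lists had a peak in it, which held for 2164 regions, and private when 1 list only had one, which held for 16106 regions. The remaining 3078 regions had peaks in 2 lists. Each replicate was the cerebellum of 1 unmodified C57BL/6NCrl mouse at postnatal day 60, with no treatment, and animals of either sex entered the study. Crosslinked, sonicated chromatin was precipitated with an Active Motif antibody against H3K27me3 and sequenced as 50 bp single reads. The labels give each P60 replicate a different catalogue number for that antibody. The 11 other libraries, from P7 and P14 cerebellum and from P14 animals with or without Atoh1-Cre deletion of Kdm6b, are not analysed here. The tissue was not sorted, so fewer cells that carry the mark and less of it per cell cannot be told apart.

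H3K27me3 is trimethylation of lysine 27 on histone H3, which the Polycomb repressive complex PRC2 deposits through its catalytic subunit Ezh2 or Ezh1 and the demethylases Kdm6a and Kdm6b remove. It is known for broad domains over the CpG-rich promoters of silent developmental regulators, such as transcription factors and signalling ligands of other lineages. Granule neurons are by far the most abundant cells of the adult cerebellum, with Purkinje cells, interneurons, glia and vascular cells making up the rest.

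The 3 lists differed in length and in peak width. They held 15600, 7227 and 6905 peaks in replicates 1, 2 and 3, covering 2.82, 1.48 and 3.61 Mb. Median peak widths were 134, 149 and 410 bp, and peaks over 1 kb made up 0.756%, 1.22% and 11.5% of the lists. The read depth behind the peaks is unknown, because the lists give no read counts. With 1 group and no control list, and with classes made from the lists themselves, no test was run. Values are given for each library side by side, and n = 3 throughout.

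The consensus regions spanned sequence of different kinds. At the strong end were short, high-fold peaks in introns and between genes, most of them partly in sequence that occurs more than once in the genome. Towards the weaker end were wide, CpG-rich, low-fold regions over the promoters of single-copy genes, among them Sox10 and Mycn, with Klf14, Gli1 and Pitx3 nearer the middle of the ranking. Another set lay at the replication-dependent histone genes, mostly in repeated sequence. To separate these, each region was scored by the share of its 50-base windows, the read length, that occur again exactly in the GRCm38 primary assembly on either strand. Regions with less than 10% recurring windows are called single-copy here, and those with 50% or more multi-copy. The class describes the assembly, so a repeat that the assembly holds once, such as the rRNA locus on chromosome 17, falls in the single-copy class. Diverged copies of a repeat are not counted either, because a window must recur exactly.

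The stretches below show what these regions look like. Each was taken from the longest stretch covered by peaks of all 3 lists in 1 region, outside annotated UTRs, from the plus strand of GRCm38 (mm10). Capitals mark CpG dinucleotides, since CpG density separates the promoter regions from most of the others. The first 4 come from regions that lead the ranking by strength or length, the fifth stands for the histone genes, and the last 3 for single-copy promoters.
Zc3h7a intron, best ranked promoter region (chr16:11143990-11144229): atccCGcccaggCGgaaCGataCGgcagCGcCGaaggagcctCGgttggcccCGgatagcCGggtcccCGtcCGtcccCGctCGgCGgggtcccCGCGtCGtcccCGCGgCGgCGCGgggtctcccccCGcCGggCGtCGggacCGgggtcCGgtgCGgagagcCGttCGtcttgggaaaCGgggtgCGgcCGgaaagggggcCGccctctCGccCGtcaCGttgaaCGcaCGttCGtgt
Chl1 intron, best ranked gene body region (chr6:103649053-103649292): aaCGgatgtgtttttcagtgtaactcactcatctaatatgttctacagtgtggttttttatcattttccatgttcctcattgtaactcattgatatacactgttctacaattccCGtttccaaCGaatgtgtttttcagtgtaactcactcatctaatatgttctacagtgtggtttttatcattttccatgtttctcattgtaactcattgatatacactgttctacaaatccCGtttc
intergenic near Rpusd4, best ranked intergenic region (chr9:35305284-35305523): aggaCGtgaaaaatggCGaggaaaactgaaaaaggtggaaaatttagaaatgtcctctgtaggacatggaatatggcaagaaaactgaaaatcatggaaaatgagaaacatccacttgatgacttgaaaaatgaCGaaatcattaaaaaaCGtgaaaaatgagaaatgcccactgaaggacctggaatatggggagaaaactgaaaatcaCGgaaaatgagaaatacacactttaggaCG
Gm26917 exon in the rRNA locus, longest common stretch (chr17:39845813-39846052): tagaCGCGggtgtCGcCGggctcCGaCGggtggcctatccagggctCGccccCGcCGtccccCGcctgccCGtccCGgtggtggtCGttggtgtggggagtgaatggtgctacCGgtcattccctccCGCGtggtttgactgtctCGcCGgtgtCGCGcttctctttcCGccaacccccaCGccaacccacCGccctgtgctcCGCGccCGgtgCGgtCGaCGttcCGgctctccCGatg
Hist1h2af coding exon, best ranked histone gene region (chr13:23533942-23534079): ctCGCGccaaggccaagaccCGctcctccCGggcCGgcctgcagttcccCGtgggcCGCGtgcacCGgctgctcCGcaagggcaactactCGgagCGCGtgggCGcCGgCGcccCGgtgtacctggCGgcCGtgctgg
Kdf1 intron, longest single-copy promoter stretch (chr4:133519266-133519505): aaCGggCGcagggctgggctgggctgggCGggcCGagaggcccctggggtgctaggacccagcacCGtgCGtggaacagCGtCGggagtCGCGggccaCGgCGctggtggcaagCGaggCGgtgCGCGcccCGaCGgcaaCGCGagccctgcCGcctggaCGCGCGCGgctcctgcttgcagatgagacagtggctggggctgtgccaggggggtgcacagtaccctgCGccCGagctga
Klf14 coding exon, second longest single-copy promoter stretch (chr6:30958372-30958611): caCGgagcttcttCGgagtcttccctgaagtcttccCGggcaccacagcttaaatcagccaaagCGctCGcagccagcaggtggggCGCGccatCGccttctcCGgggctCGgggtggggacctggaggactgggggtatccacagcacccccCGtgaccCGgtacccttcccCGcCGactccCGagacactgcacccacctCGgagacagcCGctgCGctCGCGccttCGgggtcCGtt
Mycn intron (chr12:12939163-12939206): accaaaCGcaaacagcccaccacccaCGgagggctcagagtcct
The Zc3h7a stretch held 41 CpG in 240 bases, and 129 of its 191 windows recurred. The Chl1 stretch held 4 CpG and the stretch near Rpusd4 held 6, with 68 and 31 recurring windows of 191. All 89 windows of the Hist1h2af stretch recurred, with a median of 9 copies in the assembly. Neither the Kdf1 nor the Klf14 stretch had any recurring window, with 27 and 22 CpG in 240 bases each. The Mycn stretch, 44 bases with 2 CpG, is short because the replicate 2 peak there was only 61 bp wide.

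Consensus regions lay at promoters more often than the pooled private regions, but the 3 libraries did not share that direction. Of the 2164 consensus regions, 31.9% lay within 3 kb of a protein-coding transcription start site (TSS), 20.3% elsewhere in a gene body and 47.8% between genes. The pooled private regions gave 17.2%, 19.7% and 63.1%. Replicate 1 supplied 10458 of the private regions, and 10.0% of these were at promoters. The 2431 regions private to replicate 2 were at promoters in 18.9% of cases. The 3217 regions private to replicate 3 were at promoters in 39.1% of cases, above the consensus share. The difference between consensus and private peaks within a library was therefore 22.1 percentage points in replicate 1, 13.4 in replicate 2 and -7.21 in replicate 3. The pooled difference of 14.8 points was -3.28 with only peaks of a −log10 q of 2 or more and -4.61 with lists of equal length.

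**Figure D1:**
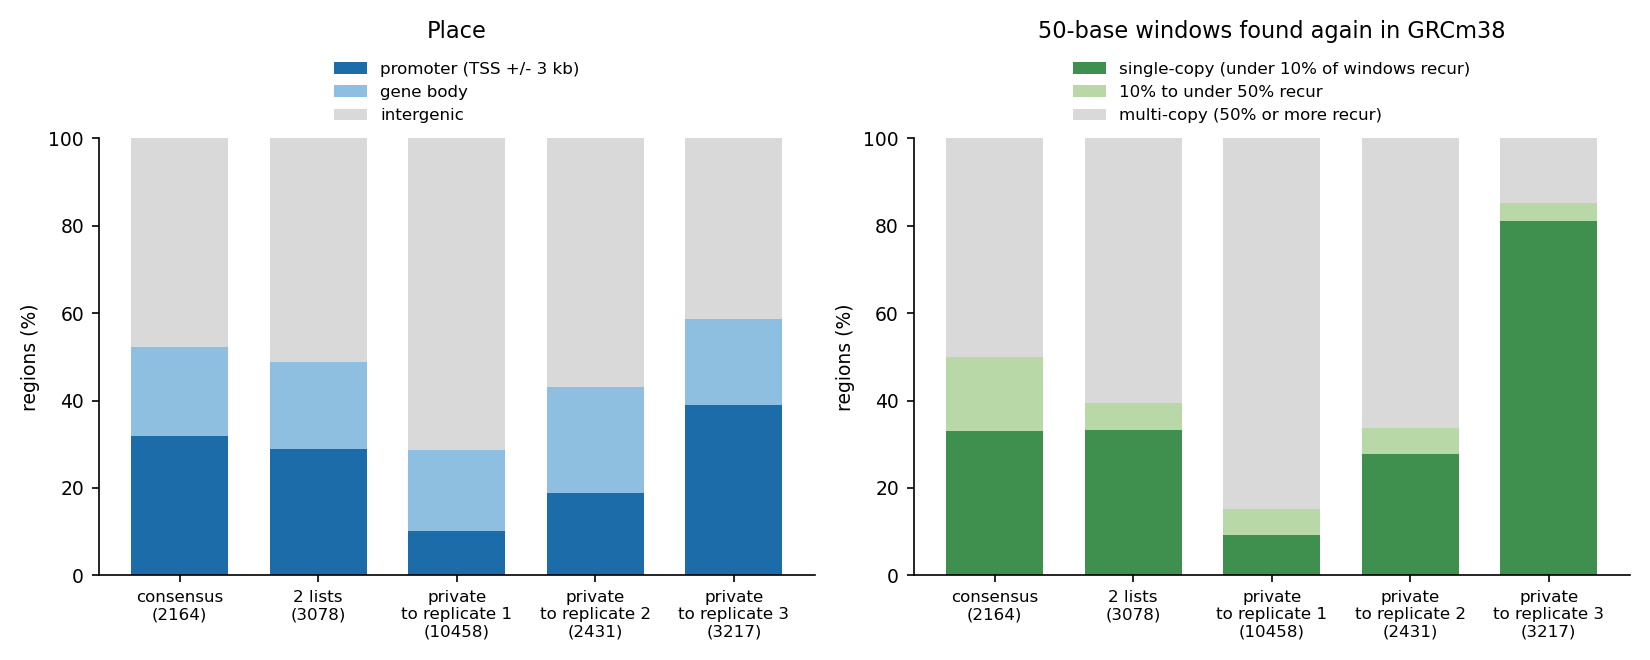
Stacked bars show the percentage of regions by place (left) and by the share of 50-base windows that recur in GRCm38 (right), for consensus regions, regions in 2 lists and regions private to each P60 replicate, with the number of regions in parentheses. Regions private to replicate 1 were 71.2% intergenic and 84.8% multi-copy, whereas regions private to replicate 3 were 39.1% promoter and 81.1% single-copy.

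The copy number of the sequence separated the libraries more than place did. Multi-copy sequence made up 50.0% of consensus regions, 84.8% of those private to replicate 1, 66.4% of those private to replicate 2 and 14.9% of those private to replicate 3. Single-copy sequence made up 33.1%, 9.24%, 27.8% and 81.1% in the same order. How reads that align to several places were treated is not stated in the methods, and its part in these shares was not tested. Within single-copy sequence, consensus peaks lay at promoters more often than private ones in all 3 libraries. The shares were 64.5% against 35.3% in replicate 1, 65.7% against 41.9% in replicate 2 and 63.6% against 44.3% in replicate 3. This order did not hold under every setting, as tried after the values were seen. Among single-copy regions built only from peaks of a −log10 q of 2 or more, 19.4% of 191 consensus and 51.7% of 1622 private regions were at promoters. With lists of equal length the shares were 32.8% and 45.6%, and with 50% cover 28% and 47.9%. Without replicate 3 the single-copy shares were 52.6% and 53.6%.

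CpG density and repeat content followed the same division. Consensus regions held 32.6 CpG per kb of sequence, against 12.6, 17.2 and 31.1 in the regions private to replicates 1, 2 and 3 and 8.26 over the 21 chromosomes. The consensus to private difference in CpG density turned to -5.89 per kb with a −log10 q of 2 or more, -4.58 with equal lists, -7.10 with 50% cover and -4.98 with peaks of 300 bp or more. Single-copy consensus regions held 53.1 CpG per kb and multi-copy ones 17.5. Soft-masked repeats covered 39.04%, 38.6% and 31.4% of the bases in consensus peaks of replicates 1, 2 and 3, and 54.5%, 39.7% and 13.8% of those in private peaks. The direction of the consensus to private difference in repeat content was thus not shared by the libraries.

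Width also set the classes apart. The median consensus region was 592.5 bp wide, the median region in 2 lists 304 bp and the median private region 144 bp. Merging widens a region with each list that adds a peak, so the widths of the peaks themselves are the closer comparison. These are not free of the class definition either, since a wide peak meets peaks of other lists more easily. Consensus peaks had median widths of 218, 204 and 497 bp in replicates 1, 2 and 3, and private peaks 114, 116 and 363 bp, so that consensus peaks were the wider in each library. Most of the width of a consensus region often came from replicate 3. At the 455 single-copy consensus promoter regions the median covered length was 253 bp in replicate 1, 249 bp in replicate 2 and 963 bp in replicate 3. Of the 2164 consensus regions, 197 had no base that all 3 lists covered, since peaks of 2 libraries were joined by a peak of the third. This held for 119 of the 455 single-copy consensus promoter regions. Among the genes described below it held at Hmx2, Foxa3, Sox10, Heyl, 1 Bmp8b region, Zfp64, Zfp872, Kcnc2, Kcng1, Kcnh4, Cacng5, Glra1, Epha6 and Col18a1.

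Consensus peaks ranked higher than private ones in every library. Ranks are percentiles of the −log10 q within a list, with 100 for the strongest peak. The median percentile of consensus peaks was 72.6, 67.1 and 78.8 in replicates 1, 2 and 3, and that of private peaks 44.5, 35.2 and 32.8. In the strongest decile of each list, 52.6%, 80.6% and 90.01% of the peaks lay in consensus regions, and all of the 100 strongest peaks of each list did. In the weakest decile these shares were 7.12%, 13.9% and 4.35%. The share at promoters ran the other way at the strong end, at 8.59%, 9.27% and 12.01% of the peaks in the strongest decile against 20.8%, 25.6% and 35.2% in the weakest.

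**Figure D2:**
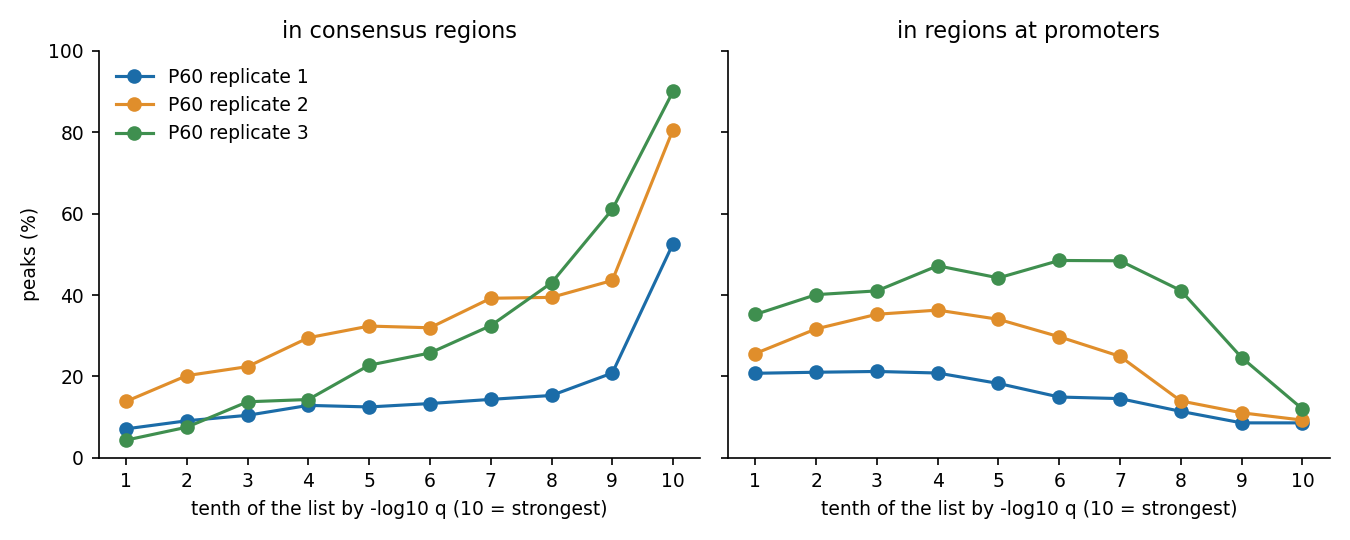
Lines show, for each P60 replicate, the percentage of peaks in consensus regions (left) and in regions at promoters (right) for deciles of the list by −log10 q, where 10 is the strongest. The consensus share climbed to 52.6%, 80.6% and 90.01% in the strongest decile, where the promoter share was 8.59%, 9.27% and 12.01%.

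Ordering the consensus regions by their mean percentile over the 3 libraries showed the change in kind from weak to strong. In the strongest decile of 217 regions, 8.76% were at promoters, the median width was 307 bp and the sequence held 24.1 CpG per kb. In the second weakest decile, 63.0% of 216 regions were at promoters, the median width was 873 bp and the sequence held 46.1 CpG per kb. The multi-copy share peaked between these ends, at 74.5% in the seventh decile from the bottom, and was 24.4% in the strongest. Across the 2164 regions the percentiles of replicates 1 and 2 had a Spearman correlation of 0.832, those of replicates 1 and 3 of 0.683 and those of replicates 2 and 3 of 0.716. These are correlations across regions chosen for having a peak in every list, and regions are not independent replicates.

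**Figure D3:**
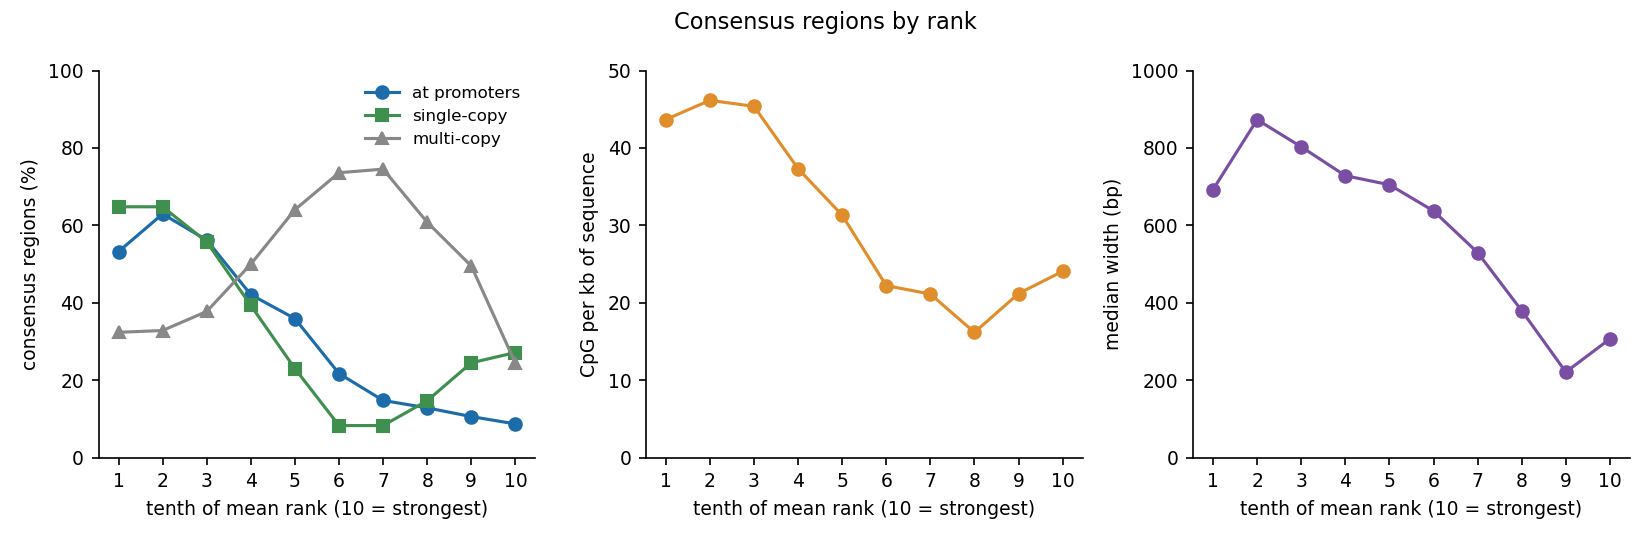
The 2164 consensus regions are divided into deciles of their mean rank percentile over the 3 libraries, 10 being the strongest. Points show the percentage at promoters, single-copy and multi-copy (left), CpG per kb (middle) and median width in bp (right). The promoter share was 63.0% in the second decile and 8.76% in the tenth.

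The best ranked promoter region lay in an intron of Zc3h7a, a zinc finger gene, at chr16:11143847-11144372, over the annotated miRNA gene Gm23935. It had a fold enrichment of 17.1, 17.6 and 15.8 in replicates 1, 2 and 3, and 60.8% of its windows recurred. Zc3h7a is thus named for position only, and whether the signal comes from this locus was not tested. Likeness to the rRNA locus was counted over classes, below, and is not given for single regions. Next came intronic regions of Sspn, which encodes a member of the dystrophin complex, at 17.1, 18.3 and 15.8-fold, and of Kpna1, a nuclear import receptor, at 16.2, 18.5 and 17.9-fold. The other regions of the 10 best were near the starts of Il31ra, Aida and Brox, Mphosph8, Taco1, Litaf, Oasl1 and Rsph3a. They were 239 to 691 bp wide, and none of the 10 overlapped an annotated UTR. Fold values were of similar size in the 3 libraries at most of these sites. At Il31ra, the interleukin 31 receptor, replicate 3 stood lower, with 21.2, 24.5 and 11.5-fold. The regions at Aida (7.68%) and Litaf (7.24%) had few recurring windows, and that at Taco1 none.

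The 5 best ranked gene body regions were intronic as well, in Chl1, Cdk5rap2, Gnb1l, Peak1 and Arhgap21. The region in Chl1, a neural cell adhesion gene, had −log10 q values of 86.0, 93.8 and 121 and a fold enrichment of 22.0, 24.1 and 19.5. Its printed stretch holds the same unit in tandem with few changed bases. Soft-masked repeats made up 30.9% of the region, and 19.8% of its windows recurred exactly. Chl1 is therefore named for position only, and whether the signal comes from this locus was not tested. In Cdk5rap2, a centrosome gene, the values were 25.3, 26.9 and 21.1-fold over a region with no recurring window. The best ranked region between genes, nearest to Rpusd4 at chr9:35305140-35305666, had 17.3, 18.2 and 15.7-fold and −log10 q values of 80.3, 88.8 and 143. Soft-masked repeats made up 77.4% of it, and 23.4% of its windows recurred exactly. Rpusd4 lay 27409 bp away and is named for nearness only. Which repeat the region holds, and whether the signal comes from this locus, was not tested. Other leading intergenic regions were nearest to Chl1, Rab10, Gm8797 and Tra2a, 273 to 579 bp wide.

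Ranked by the longest stretch that all 3 lists covered, the leading regions were wide blocks of low fold enrichment, 9 of them with 17.2% to 98.0% recurring windows and the first, at 9.49%, ribosomal. The first was a 5762 bp region at chr17:39843038-39848799 over the annotated rRNA gene CT010467.1 and the lincRNA genes Gm26917 and AY036118. Peaks covered 5762, 5741 and 5724 bp of it, at a fold enrichment of 1.79, 1.81 and 1.77. The second lay at Gm21738 on chromosome 14, with 3950 bp in common and 2.51, 2.59 and 2.47-fold. Gm10722 with Gm11168, Gm10715 with Gm17535, and Fcgr3, an Fc receptor gene, were the other promoters among the 10 longest. One block lay in an intron of Tmem267, with 2776 bp in common. The remaining blocks lay between protein-coding genes, nearest to Col19a1, Smgc, Tcte2 and Zfp825. The block nearest to Col19a1, at chr1:24611579-24616147, aligned to the mitochondrial genome over 100% of its bases and overlapped annotated unprocessed pseudogenes. Fold values in these 10 blocks ran from 1.77 to 8.22, well below those of the short leading peaks.

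Alignment to annotated repeated genes placed a small part of the consensus regions. It was tried only to the genes named here and to the mitochondrial genome, so regions that resemble other repeats are not counted. The part was larger among strong regions. Any alignment to Gm10722 was found in 9.68% of the 217 regions of the strongest decile, against 2.36% of all consensus regions. At least 50% of the bases aligned to the rRNA locus on chromosome 17 in 5 consensus regions, 4 of them in the strongest decile. Such alignment to the mitochondrial genome was found in 11, the long block nearest to Col19a1 among them, with 4 in the strongest decile. The gene Gm10722, at the start of the chromosome 9 sequence where the satellite arrays lie, was matched in this way by 49 consensus regions, 19 of them in the strongest decile. Among private regions no match of this kind to the rRNA locus was found, 1 to the mitochondrial genome, and to Gm10722 10, 1 and 0 in replicates 1, 2 and 3. Any alignment to Rn4.5s, a 4.5S RNA gene, was found in 41 consensus regions, and any to the 5S rRNA gene n-R5s100 in 16.

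Consensus regions also clustered along the chromosomes. Of 1073 windows of 1 Mb that held a consensus region, the 20 fullest held 412 regions, which is 19.0% of all. The fullest, on chromosome 5 between 15 and 16 Mb, had 53 regions and no single-copy one, and included Speer4c. The window of chromosome 8 that holds the 5S rRNA array had 32, and the window of chromosome 6 that holds Rn4.5s had 31. Windows at 23 and 21 Mb of chromosome 13, over the histone gene cluster, had 11 and 10. The windows named here were chosen after their values were seen. Per 100 Mb, chromosome 8 held most consensus regions, at 162, and chromosome Y fewest, at 29.4, with none of its 27 single-copy. The lists of replicates 1, 2 and 3 held 529, 77 and 30 peaks on chromosome Y. The shortest of these limits the consensus count there, so the low value is no measure of the mark on that chromosome.

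The genes with most consensus regions in promoter or body were Gm20388 with 34, C130026I21Rik with 18, Ulk4 with 9, Gm10717 with 8 and Mid1 with 7. Recurring windows made up a median of 80.9% to 100% of these regions. The gene Gm20388 spans the 5S rRNA array of chromosome 8. Cdh23, a cadherin of sensory hair cells, and Fgfr2, a receptor for fibroblast growth factors, had 4 consensus regions each with a median of 0% and 1.48% recurring windows. These last genes were chosen after their values were seen.

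Promoters were counted by gene next. Of 21938 protein-coding genes, 720 had a consensus region within 3 kb of a TSS (3.28%), and 477 a single-copy one (2.17%). A region private to replicate 1, 2 or 3 lay at 885, 468 and 1220 promoters (4.03%, 2.13% and 5.56%), and 3342 genes (15.2%) had a region in at least 1 list. With only peaks of a −log10 q of 2 or more, 181 genes had a consensus promoter in place of 720. The single-copy promoters were near the threshold of the lists. Of the 455 single-copy consensus promoter regions, 37 reached a −log10 q of 2 in all 3 libraries and 110 in none. Their median fold enrichment was 3.62, 3.85 and 3.38. Of all 716 single-copy consensus regions, at promoters or not, 42.3% covered a TSS, against 4.25% of the 1082 multi-copy ones. In the same order, 63.5% and 15.5% lay at promoters and median widths were 828.5 and 524 bp. The contrast is therefore not a measure of closeness to the TSS among promoter regions.

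Single-copy consensus promoters had CpG-rich sequence and a wide footprint in replicate 3. The longest stretch common to all 3 lists lay at Kdf1, a regulator of keratinocyte differentiation, with 908 bp. Peaks covered 969, 918 and 1557 bp of that region, at 4.08, 4.397 and 3.74-fold. At Klf14, a Krüppel-like transcription factor, 1013, 790 and 1008 bp were covered, at 3.34, 3.39 and 3.14-fold. Epop, a PRC2-associated protein, had 734, 892 and 1091 bp covered, at 104 CpG per kb. At Pitx3, a homeobox gene of dopamine neurons, replicate 3 covered 2277 bp, whereas replicates 1 and 2 covered 433 and 493 bp, with 57 bp in common. Apart from Pitx3, which the gene lists name, these genes were chosen after their values were seen.

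Lists of developmental transcription factors lay on both sides of the 3.28% of all genes with a consensus promoter, with few members each. Of 71 NK, Dlx, sine oculis-type and related homeobox genes, 2 had one (2.82%), Hmx2 and Pitx3. At Hmx2 the peaks covered 159, 258 and 781 bp. Of 21 LIM homeobox and Pax genes, Lhx2 was the only one, with 215, 320 and 226 bp covered in a 384 bp region of 91.1 CpG per kb. None of the 39 Hox genes, which pattern the body axis, had a consensus region. Hoxd13 had a region in replicate 2 alone, and Hoxb1, Hoxb8, Hoxc4, Hoxc6 and Hoxc13 in replicate 3 alone. With 6 of 39 in some list (15.4%), Hox genes were near the 15.2% of all genes. At a −log10 q of 2 or more, 1 gene of the NK, Dlx and related list and no LIM homeobox or Pax gene kept a consensus promoter.

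Sox genes, which encode HMG-box factors of several lineages, had the largest consensus share among the transcription factor lists, with 4 of 19 (21.1%). These were Sox10, a factor of the oligodendrocyte lineage, Sox13, Sox18, a vascular factor, and Sox30. At Sox18 the peaks covered 416, 185 and 1755 bp, at 3.97, 3.91 and 3.59-fold, and the region spanned the TSS. At Sox10 they covered 273, 170 and 1507 bp, at 4.15, 3.61 and 2.81-fold. Forkhead genes had 3 of 44 (6.82%). Foxa3, a liver and gut factor, was covered over 433, 110 and 1453 bp, Foxj1, a factor of ciliated cells, over 309, 132 and 1255 bp, and Foxp2, a Purkinje cell factor in cerebellum, over 242, 173 and 725 bp. At each of these genes replicate 3 covered most. With only peaks of a −log10 q of 2 or more no Sox or forkhead gene kept a consensus promoter.

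Among the remaining regulator lists, 1 of 8 Zic and Gli genes had a consensus promoter, Gli1, a Hedgehog pathway effector, with 199, 564 and 1168 bp covered. The proneural and Notch pathway list gave 2 of 34 (5.88%), the Notch-related repressors Hes2 and Heyl. Hes2 had 3.22, 3.27 and 2.84-fold and Heyl, covered over 159, 167 and 278 bp, 3.53, 3.81 and 3.30-fold. No Gata or Tbx gene of 21 had a consensus region, although 7 had one in at least 1 list (33.3%, against 15.2% of all genes). Zfp genes were below the 3.28% of all genes, with 3 of 391 (0.767%), namely Zfp64, Zfp143 and Zfp872. The 225 bp region near Zfp143 was the strongest of them, at 11.1, 7.98 and 9.27-fold. At a −log10 q of 2 or more, 1 Zfp gene kept a consensus promoter, and no Zic, Gli, proneural or Notch pathway gene did.

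Signalling ligands had consensus promoters at Bmp, Fgf and Wnt genes. Of 43 Fgf, Bmp and Gdf ligands, 15, 13 and 20 had a region in replicates 1, 2 and 3. These shares of 34.9%, 30.2% and 46.5% compare with 8.85%, 7.10% and 11.1% of all genes. A consensus region lay at 5 (11.6%, against 3.28% of all genes): Bmp3, Bmp8a, Bmp8b, Fgf17 and Fgf2. Bmp8a and Bmp8b are close paralogs, and 1 of the 2 Bmp8b regions had 59.8% recurring windows. Bmp8a was covered over 759, 270 and 2144 bp, at 3.58, 4.18 and 3.01-fold. Fgf17, a ligand of the embryonic midbrain and cerebellum, was covered over 453, 413 and 1251 bp. Of the 19 Wnt ligands 15 had a region in some list (78.9%, against 15.2% of all genes) and only Wnt4 in all 3. Peaks covered 199, 105 and 1240 bp at Wnt4, at 3.47, 3.34 and 3.11-fold. No Wnt ligand kept a consensus promoter at a −log10 q of 2 or more.

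Ion channel and receptor genes, part of which mature neurons use, came next. Potassium channels had 10 of 80 consensus promoters (12.5%, against 3.28% of all genes), and 20, 21 and 34 were listed in replicates 1, 2 and 3. These listed shares of 25.0%, 26.25% and 42.5% compare with 8.85%, 7.10% and 11.1% of all genes. Among them were Kcna3, Kcnc2, Kcng1, Kcng3, Kcnh4, Kcnj2, Kcnk2, Kcnk4 and Kcnn1. Kcnn1, a calcium-activated channel, was covered over 731, 426 and 1263 bp, at 3.78, 4.07 and 4.01-fold. Kcng1, a silent subunit that modifies Kv2 channels, was covered over 195, 196 and 1574 bp. The region at Kcnk2 differed from the other 9, with 183 bp, 5.46 CpG per kb and 75.4% recurring windows. Sodium, calcium and HCN channels had 3 of 44 (6.82%), at Cacna1b, Cacna1h and Cacng5, of which the Cacna1b region had 68.8% recurring windows and no CpG. With only peaks of a −log10 q of 2 or more, 0 potassium channels and 0 Fgf, Bmp and Gdf ligands had a consensus promoter.

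Glutamate receptors had 2 of 26 consensus promoters (7.69%, against 3.28% of all genes), the NMDA receptor genes Grin2d and Grin3a. Grin2d, which is used early in development in many neurons, was covered over 1322, 367 and 1313 bp, at 3.30, 4.20 and 2.95-fold. Of 26 GABA and glycine receptor genes only Glra1 (3.85%), the glycine receptor subunit of brainstem and spinal cord, had one, with 188, 78 and 1104 bp. Synaptic vesicle and release genes had 1 of 43 (2.33%), Stx1a, with 358, 186 and 675 bp. Axon guidance genes had 1 of 71 (1.41%), Epha6, with 64, 307 and 842 bp. Collagens had 3 of 44 (6.82%), Col8a2, Col18a1 and Col6a3. Col8a2 had 2 consensus regions, the larger covered over 366, 555 and 1990 bp. At a −log10 q of 2 or more, 1 collagen gene and 0 glutamate receptors kept a consensus promoter. No GABA or glycine receptor, synaptic vesicle and release or axon guidance gene did.

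**Figure D4:**
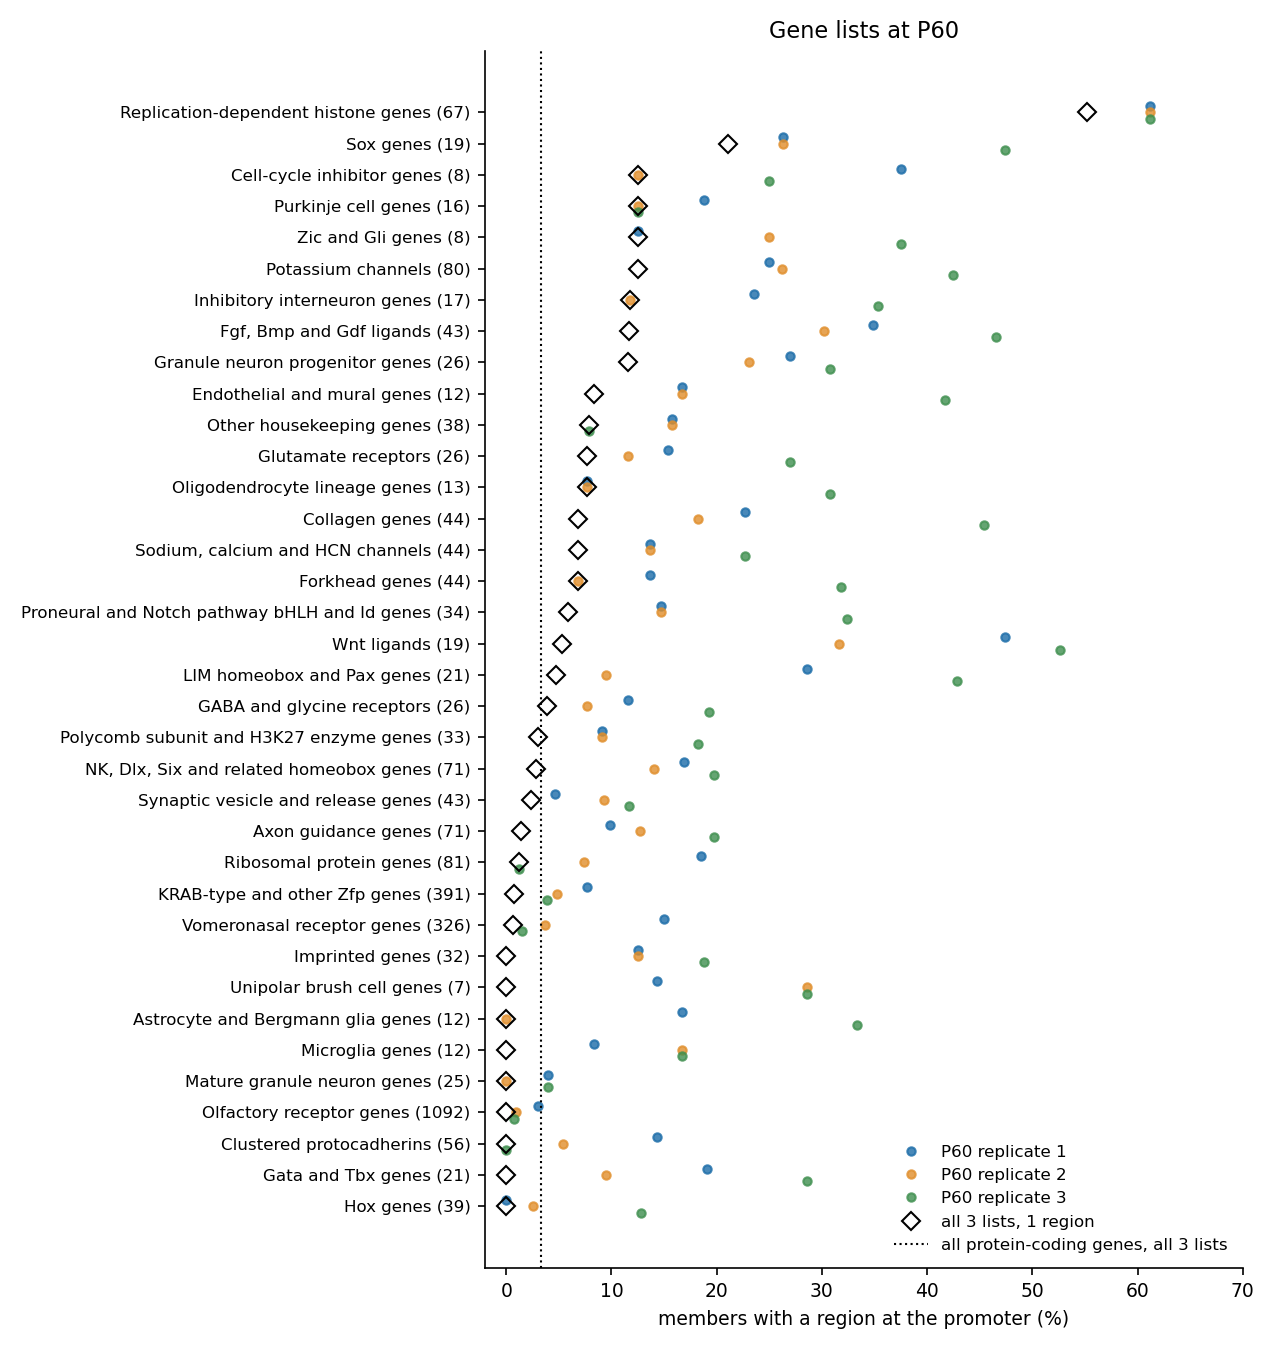
For each gene list, with its number of members in parentheses, dots show the percentage of members with a promoter region in P60 replicate 1, 2 or 3 and open diamonds the percentage with a consensus region. The dotted line marks the 3.28% of all protein-coding genes. Histone genes stand at 55.2%, Sox genes at 21.1% and Hox genes at 0%.

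Markers of cerebellar cell types were compared with the labelled tissue as far as a repressive mark allows. Of 25 mature granule neuron genes none had a consensus promoter, a count near the 3.28% of all genes for a list of this size, and 24 were in no list, where 15.2% of all genes were in some list. The exception, Kcnk9, a leak potassium channel, had separate regions of 117 bp in replicate 1 and 360 bp in replicate 3. Grin2c and Grm4, mature granule neuron genes that the study followed, had no region in promoter or body in any of the 3 lists. Granule neuron progenitor genes had 3 of 26 (11.5%, against 3.28% of all genes), the Hedgehog effector Gli1, the proliferation marker Mki67 and Mycn, a driver of progenitor division. Mycn was covered over 203, 61 and 2152 bp, at 3.23, 3.31 and 2.65-fold, and its region spanned the TSS. Mki67 was covered over 255, 110 and 1546 bp. All 3 calls were lost with a −log10 q of 2 or more, lists of equal length, 50% cover or peaks of 300 bp or more. Of the other genes that the study followed, Atoh1 was listed by replicates 1 and 2, over 146 and 219 bp, and Myc by replicates 1 and 3 in separate regions of 237 and 207 bp. Kdm6b, the demethylase gene, was covered over 758 and 272 bp in replicates 1 and 2 and not in replicate 3.

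Other cell types had 0 to 2 consensus promoters each, on lists so short that 3.28% of their genes comes to less than 1 gene. Purkinje cell genes had 2 of 16, Foxp2 and Plcb4, the latter a 206 bp region with no CpG and 43.3% recurring windows. Inhibitory interneuron genes had 2 of 17, Kit, covered over 250, 69 and 1735 bp, and Nxph1, over 90, 255 and 248 bp. Oligodendrocyte lineage genes had Sox10 alone of 13. Endothelial and mural genes had 1 of 12, the tight junction gene Cldn5, with 365, 191 and 1643 bp. Astrocyte and Bergmann glia (12), microglia (12) and unipolar brush cell genes (7) had none. With only peaks of a −log10 q of 2 or more, the interneuron, oligodendrocyte and endothelial counts fell to 0 and the Purkinje cell count to 1.

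Polycomb subunit and H3K27 enzyme genes had 1 of 33 (3.03%), close to the share of all genes. In 1 or 2 lists were Cbx2, Cbx7, Cbx8, Kdm6b, Pcgf2, Pcgf5 and Phf19. Of 8 cell-cycle inhibitor genes Cdkn2a had one, 2809 bp from the nearest TSS, with 75.1% recurring windows and 502, 248 and 460 bp covered. No imprinted gene of 32 and no clustered protocadherin of 56 had a consensus promoter. In some list were 11 (34.4%) and 10 (17.9%) of these, against 15.2% of all genes.

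Chemosensory receptor genes, which sensory neurons of the nose use, had few consensus promoters. None of 1092 olfactory receptor genes and 2 of 326 vomeronasal receptor genes (0.613%), Vmn2r4 and Vmn2r102, had a consensus promoter, against 3.28% of all genes. Their regions of 144 and 148 bp held 0 and 13.5 CpG per kb. Replicate 1 listed 33 olfactory (3.02%) and 49 vomeronasal receptor genes (15.0%), against 8.85% of all genes. Replicate 3 listed 8 (0.733%) and 5 (1.53%), against 11.1% of all genes. In some list were 15.6% of vomeronasal receptor genes and 15.2% of all genes. Constitutively used genes served as a comparison. Ribosomal protein genes had 1 of 81 (1.23%), Rps29, and other housekeeping genes 3 of 38 (7.89%), among them the tubulin genes Tuba1a and Tuba1b. The regions at Rps29, Tuba1a and Tuba1b were multi-copy, with 79.4% to 88.1% recurring windows.

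Replication-dependent histone genes stood apart from the other lists. Of 67 such genes, which supply histones in S phase from clusters of intronless copies, 37 had a consensus region at the promoter (55.2%). Over all genes the share was 3.28%. Each library listed 41 (61.2%), against 8.85%, 7.10% and 11.1% of all genes in replicates 1, 2 and 3. The 41 were not the same genes throughout, with 39, 39 and 41 on chromosome 13 and 2, 2 and 0 on chromosome 3. The 37 genes shared 18 regions, because neighbouring genes lie within 3 kb of each other, so they are not 37 independent sites. All lay on chromosome 13, where 37 of 54 members had one, and the 10 members on chromosome 3, 2 on chromosome 11 and 1 on chromosome 6 had none. By histone, 2 of 6 H1, 11 of 18 H2A, 11 of 18 H2B, 8 of 12 H3 and 5 of 13 H4 genes had one. None of the 18 regions was single-copy. Their recurring windows ranged from 28.6% to 100%, with a median of 93.5%, and their CpG density was 77.7 per kb. The regions in Hist1h2bq and Hist1h2br were the widest, at 1230 and 1227 bp, and held only 23.6 CpG per kb each.

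The strongest histone region, shared by Hist1h2af, Hist1h3g and Hist1h4h at chr13:23533903-23534108, had 5.31, 6.32 and 8.04-fold and covered 142, 154 and 206 bp. The region of Hist1h2ah and Hist1h2bk, 166 bp wide, had 5.56, 5.03 and 5.59-fold. Hist1h2ai, Hist1h2bl and Hist1h3h shared a region with 5.43, 5.68 and 4.80-fold, all of whose windows recurred. Hist1h2an and Hist1h2bp shared a region of 149 bp with 5.31, 5.04 and 4.66-fold. Unlike the single-copy promoters, the histone regions were of similar covered length in the 3 libraries, with medians of 215, 152 and 267 bp. Median fold was 4.71, 4.64 and 4.33, against 3.63, 3.82 and 3.31 at the 46 single-copy consensus promoter regions of the other lists. With only peaks of a −log10 q of 2 or more, 21 of the 67 histone genes had a consensus promoter. Whether reads from 1 copy were assigned to several was not tested.

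**Figure D5:**
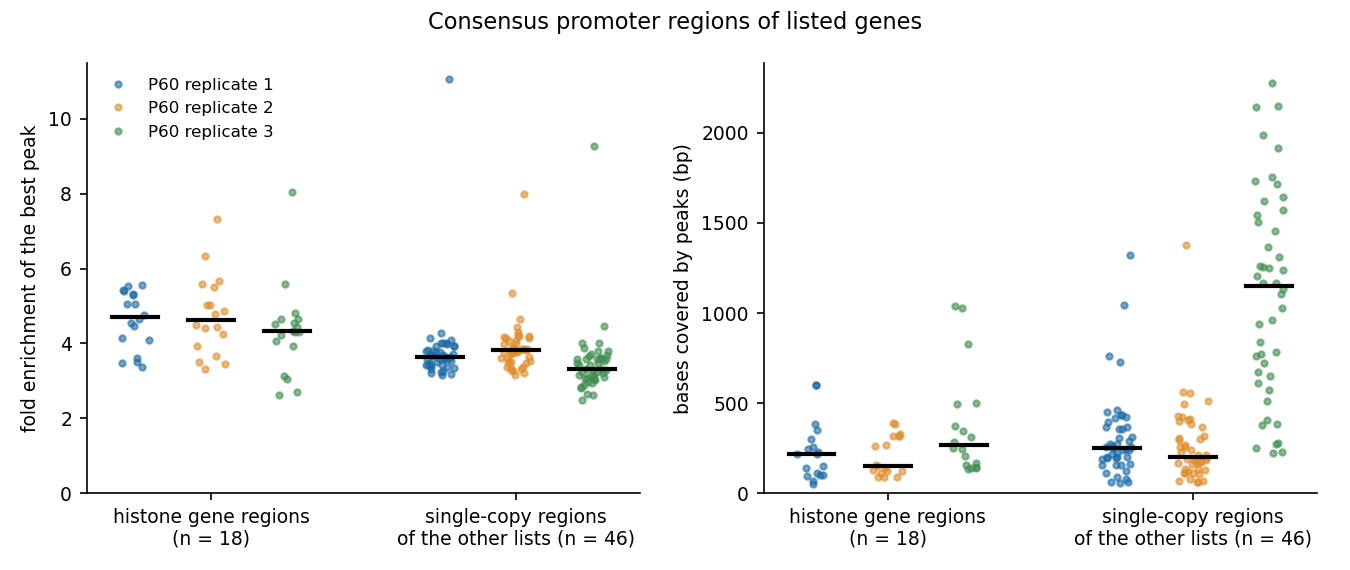
Points are consensus promoter regions of listed genes, 18 histone gene regions and 46 single-copy regions of the other lists, by fold enrichment of the best peak (left) and bases covered (right) in each P60 replicate, with black bars for medians. Replicate 3 covered a median of 1152 bp of the single-copy regions, replicates 1 and 2 a median of 252.5 and 203 bp.

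Some families outside the lists also had several consensus promoters, as seen when genes were grouped by symbol after the values were known. Claudins, the proteins of tight junctions, had 5 of 33 (15.2%, against 3.28% of all genes), Cldn3, Cldn4, Cldn5, Cldn7 and Cldn10, all single-copy. Insulin-like growth factor binding proteins had 3 of 7, Igfbp4, Igfbp6 and Igfbp7, all single-copy. Other symbol groups had shares as high as the claudins or higher, such as Pcdh with 3 of 12 (25%) and H with 11 of 72 (15.3%). Symbol groups were not recounted at a stricter threshold. Solute carriers had 19 of 371, among them Slc18a2, the vesicular monoamine transporter. Their share of 5.12% was nearer to the 3.28% of all genes, with other large symbol groups at 4.13% (Tmem) and 3.92% (Fam). The heat shock genes Hspa1a, Hspa1b and Hspa1l had regions that were not single-copy, as did 4 of 10 Speer genes.

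The best ranked private regions were short and lay between genes. In replicate 1 the 3 best were 59 to 72 bp wide, nearest to Plscr4, Ptprc and Nox4, with 9.94 to 10.2-fold and 100% of their bases in soft-masked repeats. In replicate 2 they were 78 to 208 bp wide, nearest to 1700020N01Rik, Ocm and St6galnac3, with 9.13 to 9.81-fold. In replicate 3 they were 134 to 244 bp wide, nearest to Uchl1, Stc1 and Gm15292, with 6.76 to 7.41-fold. None of these 9 lay within 3 kb of a protein-coding TSS, and all were weaker than the leading consensus regions.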

How the data were processed

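The 3 P60 broad peak lists were used, 1 per replicate. Per the labels and methods, the authors trimmed 50 bp single reads with Trimmomatic 0.38, aligned them to GRCm38 (mm10) with STAR 2.7.2b, kept mapped reads and called broad peaks with MACS2 2.1. No control library and no rule for reads with several alignments are given in the sources used here. The deposited lists hold a fold enrichment (a ratio), −log10 p and −log10 q per peak, and a display score equal to 10 times the −log10 q. Peaks reached down to a −log10 q of 1.00, weaker than the threshold that the methods name. Depth is unknown.

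Peaks were merged where they overlapped or touched (equal to bedtools 2.31.1 for all 21348 regions) and classed by list. Place was taken from GENCODE vM21 (21938 protein-coding genes, 93513 TSSs; promoter within 3 kb, then gene body). Exact recurrence of 50-base windows was counted over 66 sequences of the primary assembly (RefSeq GRCm38.p6, same chromosome lengths as mm10), and blastn 2.17.0 gave alignments at an E-value of 1e-10 or lower. Merging, place and window counts were tested on simulated data. Ranks were taken within a list by −log10 q.

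Named regions were the 10 best ranked consensus regions at promoters, 5 in gene bodies and 5 between genes, the 10 with the longest stretch common to all lists, the 3 best private regions of each library, the 5 genes with most consensus regions, and of 36 gene lists all consensus members up to 12, otherwise the 4 best ranked, with Kdm6b and the genes the study uses as examples. A few members that the rule names are not reported here. Members, lists and rules were chosen with earlier results of these data known, and the copy classes after the values were seen. Alternatives changed merging, thresholds, list length, overlap, width, chromosomes, libraries, TSS set and copy class. Python 3.11.15 was used. The 11 other libraries were left out.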

Additional observations from a re-analysis of the deposited data

How the results depend on the processing

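The counts and shares depended on how the lists were thresholded and joined. Against 2164 consensus regions in the report, peaks of a −log10 q of 2 or more gave 1106, of 4 or more 565, lists of equal length 1414, peaks that cover 50% of the region 747 and peaks of 300 bp or more 552. Single-copy regions alone numbered 716 and multi-copy ones 1082, and leaving out 1 replicate gave 2778 to 3781 (fewer lists are then required). Private regions were 7353, 1812 and 4324 with a −log10 q of 2 or 4 and with 300 bp, 4253 when single-copy, and 8181 to 15924 with a replicate left out.

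The share of consensus regions at promoters, 31.9% in the report, was 35.5% with peaks joined over 1 kb, 15.0% and 11.5% with a −log10 q of 2 and 4, 18.03% with equal lists, 17.5% with 50% cover, 30.6% with 300 bp, 32.2% on numbered autosomes and X, 26.8% for promoters within 1 kb and 26.5% with 1 TSS per gene. It was 63.5% in single-copy and 15.5% in multi-copy regions, and 21.8% to 35.8% with a replicate left out (lowest without replicate 3). The private share, 17.2%, was 38.9% with 300 bp and 41.9% in single-copy regions, and 17.3% to 28.3% with a replicate left out. Consensus minus private promoter share, 14.8 points, reversed to -3.28 with a −log10 q of 2, -4.61 with equal lists, -2.96 with 50% cover and -8.31 with 300 bp, and was 4.55 to 17.1 with a replicate left out. Genes with a consensus promoter, 720, numbered 181, 71, 274, 137 and 181 with a −log10 q of 2 and 4, equal lists, 50% cover and 300 bp, 477 in single-copy and 175 in multi-copy regions, and 747 to 1073 with a replicate left out.

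The CpG difference, 11.5 per kb, reversed to -5.89, -4.58, -7.10 and -4.98 with a −log10 q of 2, equal lists, 50% cover and 300 bp, was 3.17 with a −log10 q of 4 and 19.1 in single-copy regions, and 4.90 to 11.7 with a replicate left out. The difference in masked bases, -3.43 points, reversed to 15.9, 2.94, 17.8, 16.1 and 22.2 with a −log10 q of 2 and 4, equal lists, 50% cover and 300 bp and to 0.481 in single-copy regions, and was -5.42 to 6.69 with a replicate left out. Median consensus width, 592.5 bp, was 808, 401.5, 302, 938.5 and 828.5 bp with joining over 1 kb, a −log10 q of 2 and 4, 300 bp and in single-copy regions, and 252 to 556 bp with a replicate left out. Median private width was 500 bp with 300 bp peaks. The rank difference, 35.4 percentiles, was 44.8 and 49.4 with a −log10 q of 2 and 4, 16.1 when ranked by fold and 22.1 in single-copy regions, and 24.2 to 30.3 with a replicate left out. The single-copy and multi-copy settings were chosen after seeing the data. Apart from fewer regions or lists by construction, the cause was not tested.

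Of the 36 gene lists, the count of consensus promoters moved in 24 with a −log10 q of 2 and in 19 with equal lists. No paired analysis was possible because 1 group was described and no test was run. Depth is unknown, so what it limits cannot be given.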

Other observations

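Replicate 3 alone listed a promoter region for 1220 of 21938 protein-coding genes (5.56%), and replicate 1 alone for 885 (4.03%). Among forkhead genes 11 of 44, among potassium channels 16 of 80, among collagens 10 of 44 and among proneural and Notch pathway genes 8 of 34 had a region private to it. For olfactory receptors it was 6 of 1092, where replicate 1 alone listed 28, and for vomeronasal receptors 0 of 326, where replicate 1 alone listed 42.

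Regions in 2 lists differed with the pair. The 1566 regions of replicates 1 and 2 were at promoters in 12.8% of cases and multi-copy in 84.2%, whereas the 884 of replicates 1 and 3 gave 42.9% and 42.1% and the 628 of replicates 2 and 3 gave 49.5% and 27.2%.

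A few single-copy consensus regions, chosen after their values were seen, combined high fold with low CpG density. At Asmt, the last enzyme of melatonin synthesis, 771, 652 and 722 bp were covered, at 9.002, 9.50 and 8.16-fold and 3.89 CpG per kb. In an intron of Mdga2, 761, 760 and 822 bp were covered, at 9.41, 9.36 and 9.39-fold, with 77.3% of the bases in soft-masked repeats.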
